A study of Mus musculus with 8 samples.

Results

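The 35 genes described here encode the enzymes that carry glucose to pyruvate and lactate, the transporters of glucose and lactate, and the kinases that set the pace of the pathway and the fate of pyruvate. They were taken by gene symbol from a table of 21812 genes. All 35 passed the filter on low values, as did 14413 genes in the whole table. RNA was measured in mouse embryonic stem cells cultured to become primitive endoderm, which is the extraembryonic lineage that forms beside the epiblast in the early embryo. The 8 libraries fall into 4 groups of 2, labelled Mettl3 cKO, Mettl3 WT, Virma cKO and Virma WT. Mettl3 encodes the methyltransferase, and Virma a large scaffold protein, of the machinery that deposits m6A (N6-methyladenosine) in mRNA. All groups share the induction medium. The labels give no deleted exon, Cre driver or clone, and do not say whether the 2 libraries of a group came from separate cultures, so p-values here reflect only how far 2 libraries lie apart, a spread that may be technical.

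Glycolysis splits glucose into pyruvate. Hexokinase and phosphofructokinase act early in it, phosphofructokinase as its committed step, and pyruvate kinase closes it. Pyruvate is then either reduced to lactate by lactate dehydrogenase and exported, or taken into the mitochondrion and oxidised by pyruvate dehydrogenase, which the pyruvate dehydrogenase kinases switch off. Pluripotent stem cells are known for high glycolytic activity, and many genes of the pathway are known targets of the hypoxia-inducible factors and of Myc.

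The deposited table is named as raw counts, but its values are gene counts that were multiplied by 1 factor per library and rounded. The third quartile over all genes was 601.25 or 602 in each library. Depth was estimated from how often each low value occurred. The libraries held about 17600000 and 16000000 reads in Mettl3 cKO, and 6700000 and 6200000 in Mettl3 WT. They held about 23000000 and 22300000 reads in Virma cKO, and 25600000 and 25000000 in Virma WT. Mettl3 WT was therefore the shallowest group, and values from it carry the largest counting error. Levels below are CPM (counts per 1000000), from approximate reads scaled by the trimmed mean of M values. Log2 fold changes are of CPM + 0.5, with their standard error (SE), from limma with precision weights, and a gene was called at a Benjamini-Hochberg adjusted p under 0.05 over the 14413 genes. The words rose and fell are used of called genes. Alternative fits used other scalings, no filter, or single libraries left out, or removed the trend of fold change on transcript length and GC content.

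The targeted genes were read first. Mettl3 stood at 35.4 and 33.9 CPM in libraries labelled Mettl3 cKO, against 35.4 and 34.9 CPM in Mettl3 WT. The groups overlapped, and the log2 fold change was −0.02 ± 0.07 (adjusted p = 0.86). The gene's RNA level thus did not set the libraries labelled Mettl3 cKO apart from Mettl3 WT, and a gene count cannot show a deletion that leaves most of the transcript in place. Virma stood at 70.9 and 73.8 CPM in Virma cKO, against 94.03 and 89.3 CPM in Virma WT, and fell by 0.34 ± 0.04 on the log2 scale (adjusted p = 3.24e-07). Mettl3 itself also fell in Virma cKO, by 0.42 ± 0.04, to 34.1 and 33.5 CPM in Virma cKO against 46.2 and 44.5 CPM in Virma WT. Every direction given below for the Mettl3 line therefore rests on the label of those libraries.

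Most genes of the pathway fell in each comparison, with a larger median fall in Virma cKO. In the libraries labelled Mettl3 cKO, 20 of the 35 genes fell, 8 rose and 7 were not called, beside 24.1% lower and 24% higher among all genes tested. In Virma cKO, 22 fell, 6 rose and 7 were not called, beside 33.3% lower and 34.1% higher among all genes tested. The median log2 fold change of the 35 genes was −0.27 in the libraries labelled Mettl3 cKO and −0.47 in Virma cKO, and that of all genes tested was 0.02 in each comparison. With the trend on length and GC removed, the medians of the 35 genes were close, at −0.42 and −0.44, and 25 of the genes were lower and 3 higher in the libraries labelled Mettl3 cKO. Counting the Mettl3 WT pair as 1 sample left 19 lower and 5 higher there, without the rises of Eno1 (0.05), Pdk1 (0.18) and Pdk3 (0.23) and the fall of Pgm1 (−0.19). Changes of at least 1.5-fold were called lower for 5 of the genes in the libraries labelled Mettl3 cKO (5.22% of all genes tested) and for 15 in Virma cKO (8.64%). They were called higher for 0 genes in the libraries labelled Mettl3 cKO (8.58% of all genes tested) and for 1 in Virma cKO (13%), Pdk4. Scaling by total, which moved the median of all genes tested in the Virma line to 0.14, called 6442 genes higher and 3485 lower there, against 4916 and 4804 here, and 20 of the 35 genes lower and 8 higher.

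Summed over the 35 genes, the level was 12440 and 12730 CPM in libraries labelled Mettl3 cKO, against 13790 and 13940 CPM in Mettl3 WT, and 8700 and 8656 CPM in Virma cKO, against 13920 and 14030 CPM in Virma WT. The cKO sums lay below the WT sums in both lines, at 0.907 of WT in the Mettl3 line and 0.621 of WT in the Virma line. Most of each sum came from Gapdh, Pkm, Eno1, Slc2a3 and Aldoa, and the size of these ratios depends on the scaling. As shares of each library's total, the genes held 1.24% and 1.26% in libraries labelled Mettl3 cKO, against 1.36% and 1.37% in Mettl3 WT. The shares were 0.92% and 0.92% in Virma cKO, against 1.34% and 1.36% in Virma WT. The cKO and WT libraries did not overlap for 34 of the 35 genes in the Mettl3 line (74.6% of all genes tested). In the Virma line they did not overlap for 30 of 35, near the share of all genes tested (84.3%).

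Both comparisons called 16 of the genes lower: Hk2, Pfkl, Pfkp, Pfkfb2, Aldoa, Aldoc, Tpi1, Pgk1, Pgam2, Pkm, Ldha, Slc2a1, Slc2a3, Slc16a3, Pdk2 and Pgm2. Among all genes tested, 15.3% were lower in both. Of the 16, Hk2, Slc2a1, Pfkp, Pfkfb2, Aldoc and Pgam2 had the smaller fall in Virma cKO, and the rest the larger. Eno3 and Pdk1 rose in both, as did 14.4% of all genes tested. A further 8 genes were called in opposite directions, beside 8.69% of all genes tested: Gapdh, Pgam1, Eno1 and Pdk3 rose in the libraries labelled Mettl3 cKO and fell in Virma cKO, and Hk1, Pfkfb3, Pdk4 and Pgm1 did the reverse. Bpgm and G6pc3 were called only in the Mettl3 line, Gpi1 and Pfkm only in the Virma line, and Pfkfb1, Pfkfb4, Eno2, Ldhb and Slc16a1 in neither.

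**Figure D1:**
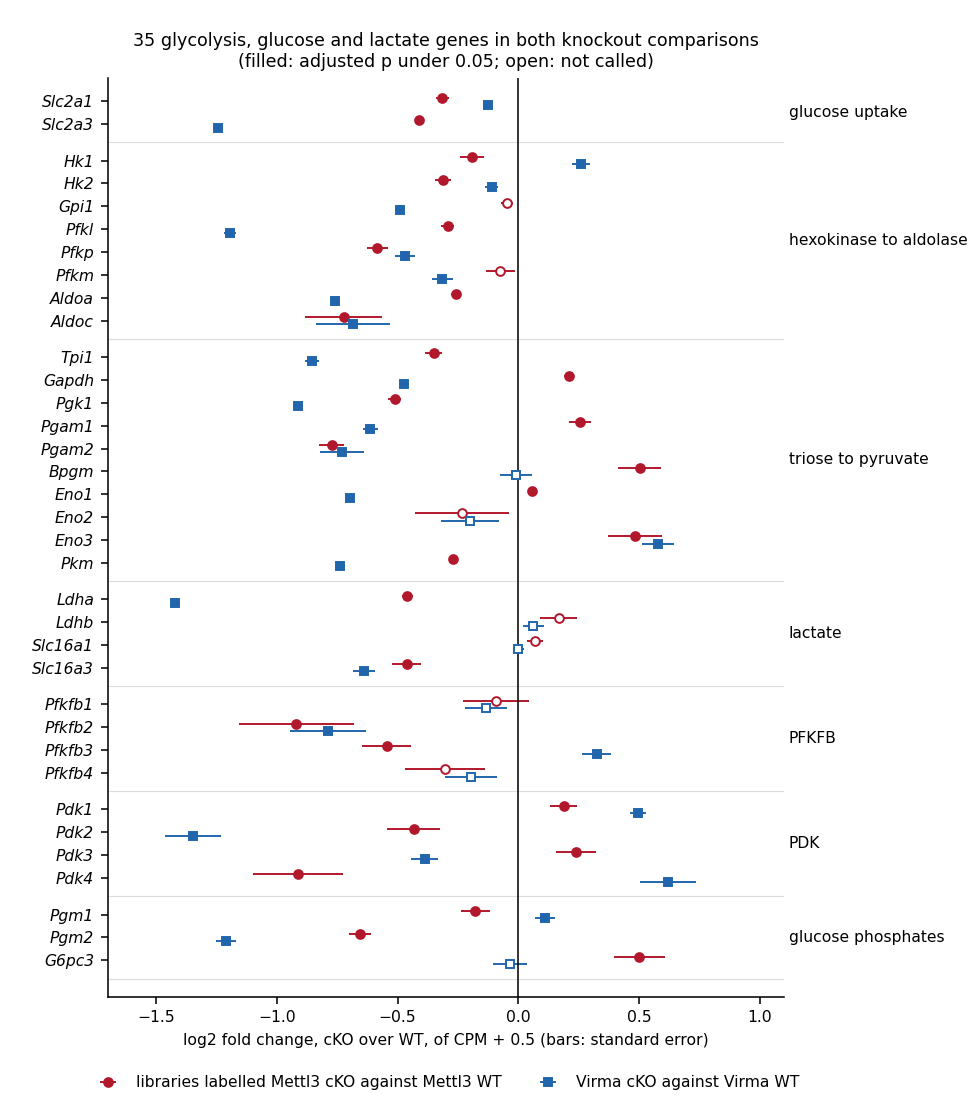
Log2 fold change (x axis) of each of the 35 genes, grouped by role, in the libraries labelled Mettl3 cKO against Mettl3 WT (red circles) and in Virma cKO against Virma WT (blue squares), with bars of 1 standard error and filled symbols for called genes. Ldha (−1.42), Pdk2 (−1.35), Slc2a3 (−1.24), Pgm2 (−1.21) and Pfkl (−1.19) lie farthest to the left in Virma cKO, and Pdk4 lies on opposite sides of 0 in the 2 comparisons.

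Both glucose transporters fell in both lines. Slc2a3, a high-affinity glucose carrier, was read at 1365 and 1364 CPM in libraries labelled Mettl3 cKO, against 1796 and 1834 CPM in Mettl3 WT, and at 709.5 and 694 CPM in Virma cKO, against 1668 and 1652 CPM in Virma WT. It fell by 0.41 ± 0.02 in the libraries labelled Mettl3 cKO (adjusted p = 1.21e-11) and by 1.24 ± 0.01, a 2.37-fold lower level, in Virma cKO (adjusted p = 1.37e-19). The Virma cKO libraries held the lowest levels of the 8. Slc2a1, the widespread basal glucose carrier, was read at 320.2 and 328 CPM in libraries labelled Mettl3 cKO, against 408 and 397 CPM in Mettl3 WT, and at 398 and 394 CPM in Virma cKO, against 433 and 430.4 CPM in Virma WT. Its falls were smaller, 0.31 ± 0.03 and 0.13 ± 0.02; with libraries scaled by their total, the Virma value was 0.01 (adjusted p = 0.712) and no longer called.

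The hexokinases, which trap glucose in the cell as a phosphate, both fell in the libraries labelled Mettl3 cKO and were called in opposite directions, with small changes, in Virma cKO. Their summed level was 0.824 of WT in the Mettl3 line and 0.997 of WT in the Virma line. Hk2, the inducible isozyme, was read at 211 and 215 CPM in libraries labelled Mettl3 cKO, against 264 and 264 CPM in Mettl3 WT, and at 176 and 185 CPM in Virma cKO, against 197 and 192 CPM in Virma WT. It fell by 0.31 ± 0.03 in the libraries labelled Mettl3 cKO and by 0.11 ± 0.03 in Virma cKO. The Virma call was lost with scaling by total (0.02, adjusted p = 0.437) and without Virma cKO replicate 1 (−0.07, adjusted p = 0.0549). Hk1, the widely expressed isozyme, was read at 87.3 and 91.2 CPM in libraries labelled Mettl3 cKO, against 97.4 and 107 CPM in Mettl3 WT, and at 79.9 and 81.4 CPM in Virma cKO, against 66.1 and 68.3 CPM in Virma WT. It fell by 0.19 ± 0.05 in the libraries labelled Mettl3 cKO, a call lost without Mettl3 WT replicate 2 (−0.13, adjusted p = 0.112), and rose by 0.26 ± 0.04 in Virma cKO. Gpi1, the isomerase that turns glucose phosphate into fructose phosphate, was read at 691 and 716 CPM in libraries labelled Mettl3 cKO, against 729 and 724 CPM in Mettl3 WT, with a log2 fold change of −0.05 ± 0.02 that was not called. It was called, at −0.07 to −0.18, under 2 other scalings, with the trend on length and GC removed and without Mettl3 cKO replicate 2. In Virma cKO it was read at 469.9 and 456 CPM, against 651 and 652 CPM in Virma WT, and fell by 0.49 ± 0.02.

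Phosphofructokinase commits sugar to glycolysis, and its subunits fell to unlike degrees. Pfkl, the liver-type subunit, was read at 284 and 293 CPM in libraries labelled Mettl3 cKO, against 354 and 352 CPM in Mettl3 WT, and at 145 and 150.4 CPM in Virma cKO, against 338 and 339 CPM in Virma WT. It fell by 0.29 ± 0.03 in the libraries labelled Mettl3 cKO and by 1.19 ± 0.02 in Virma cKO, 2.29-fold lower (adjusted p = 1.53e-16). Pfkp, the platelet-type subunit, was read at 118 and 116 CPM in libraries labelled Mettl3 cKO, against 173 and 178 CPM in Mettl3 WT, and at 59.8 and 60.1 CPM in Virma cKO, against 87.1 and 79.6 CPM in Virma WT. It fell by 0.58 ± 0.04 and by 0.47 ± 0.04. The difference of 0.11 ± 0.06 between the lines was not called, but was 0.23 and called with scaling by total (adjusted p = 0.00352) and 0.18 and called without Virma WT replicate 1 (adjusted p = 0.0111). Pfkm, the muscle-type subunit, was read at 54.95 and 59.04 CPM in libraries labelled Mettl3 cKO, against 59.9 and 59.9 CPM in Mettl3 WT, with a log2 fold change of −0.07 ± 0.06 that was not called but was −0.23 and called with the trend on length and GC removed. In Virma cKO Pfkm was read at 43.4 and 44.2 CPM, against 53.4 and 55.9 CPM in Virma WT, and fell by 0.31 ± 0.04.

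Aldolase, which splits the sugar into trioses, fell in both lines with both of its genes. Aldoa, the main isozyme here, was read at 976 and 978 CPM in libraries labelled Mettl3 cKO, against 1154 and 1184 CPM in Mettl3 WT, and at 616 and 610.4 CPM in Virma cKO, against 1026 and 1049 CPM in Virma WT. It fell by 0.26 ± 0.02 in the libraries labelled Mettl3 cKO and by 0.76 ± 0.02 in Virma cKO. Aldoc, the isozyme best known from brain, was low throughout, at 8.06 and 11.1 CPM in libraries labelled Mettl3 cKO, against 16.9 and 14.7 CPM in Mettl3 WT, and 3.69 and 5.29 CPM in Virma cKO, against 7.33 and 7.44 CPM in Virma WT. It fell by 0.72 ± 0.16 and by 0.68 ± 0.15, with larger errors, and the first call was lost with no filter (adjusted p = 0.0538).

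Of the genes of the triose steps, Pgk1, Tpi1 and Pgam2 fell in both lines, and Gapdh and Pgam1 fell in Virma cKO but were called higher in the libraries labelled Mettl3 cKO, calls that did not hold with the trend on length and GC removed. Pgk1, the first step that yields ATP, was read at 307 and 311 CPM in libraries labelled Mettl3 cKO, against 439 and 443 CPM in Mettl3 WT, and at 235 and 234 CPM in Virma cKO, against 449.8 and 433 CPM in Virma WT. It fell by 0.51 ± 0.03 in the libraries labelled Mettl3 cKO and by 0.91 ± 0.02 in Virma cKO, and the WT groups of the 2 lines overlapped. Tpi1, which interconverts the trioses, was read at 216 and 209.6 CPM in libraries labelled Mettl3 cKO, against 279.7 and 263 CPM in Mettl3 WT, and at 123 and 124 CPM in Virma cKO, against 219 and 228 CPM in Virma WT. It fell by 0.35 ± 0.04 and by 0.86 ± 0.03.

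Gapdh, the oxidising step of the pathway and a common reference gene, went opposite ways. It was read at 2784 and 2922 CPM in libraries labelled Mettl3 cKO, against 2439 and 2488 CPM in Mettl3 WT, and at 1528 and 1515 CPM in Virma cKO, against 2112 and 2110 CPM in Virma WT. It rose by 0.21 ± 0.02 in the libraries labelled Mettl3 cKO, although with the trend on transcript length and GC content removed it was lower by 0.06, and fell by 0.47 ± 0.02 in Virma cKO. Per kilobase of transcript, Gapdh had the highest level of the 35 genes in each group, at 2009 CPM per kb in the libraries labelled Mettl3 cKO and 1071 CPM per kb in Virma cKO.

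Pgam1, the mutase of most tissues, followed the same pattern, at 215 and 230.1 CPM in libraries labelled Mettl3 cKO, against 180.2 and 192 CPM in Mettl3 WT, and 179 and 175 CPM in Virma cKO, against 265 and 277 CPM in Virma WT. It rose by 0.26 ± 0.04 in the libraries labelled Mettl3 cKO, a call lost once the trend on length and GC was removed (0.08, adjusted p = 0.138), and fell by 0.61 ± 0.03 in Virma cKO. Pgam2, the muscle mutase, was read at 56.4 and 57.9 CPM in libraries labelled Mettl3 cKO, against 103 and 93.1 CPM in Mettl3 WT, and at 8.04 and 7.29 CPM in Virma cKO, against 13.3 and 12.7 CPM in Virma WT. It fell by 0.77 ± 0.05 and by 0.73 ± 0.09, and both groups of the Mettl3 line lay far above both groups of the Virma line. Bpgm, which diverts an intermediate into bisphosphoglycerate, was read at 42.4 and 42.01 CPM in libraries labelled Mettl3 cKO, against 31.4 and 27.8 CPM in Mettl3 WT, and rose by 0.50 ± 0.09. In Virma cKO Bpgm was read at 23.6 and 23.9 CPM, against 22.2 and 25.8 CPM in Virma WT, with overlapping groups and a log2 fold change of −0.01 ± 0.07.

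Among the enolases, Eno1, the ubiquitous isozyme, was read at 1683 and 1744 CPM in libraries labelled Mettl3 cKO, against 1620 and 1669 CPM in Mettl3 WT, and at 1462 and 1468 CPM in Virma cKO, against 2356 and 2389 CPM in Virma WT. It fell by 0.70 ± 0.01 in Virma cKO (adjusted p = 1.27e-16). Its rise of 0.06 ± 0.02 in the libraries labelled Mettl3 cKO was small: it was not called without Mettl3 WT replicate 1 (0.04), without Mettl3 cKO replicate 2 (0.04), with no filter (0.06) or under 2 other scalings (0.03 each), and turned to −0.20 with the trend on length and GC removed. Eno3, the muscle isozyme, rose in both lines, at 22.4 and 21.9 CPM in libraries labelled Mettl3 cKO, against 16.2 and 15.2 CPM in Mettl3 WT, and 26.3 and 23.6 CPM in Virma cKO, against 17.2 and 15.9 CPM in Virma WT. The rises were 0.48 ± 0.11 and 0.58 ± 0.06; in the Mettl3 line the call was lost once the trend on length and GC was removed (0.27, adjusted p = 0.0565). Eno2, the neuronal isozyme, was read at 5.12 and 5.82 CPM in libraries labelled Mettl3 cKO, against 8.31 and 4.92 CPM in Mettl3 WT, and at 5.62 and 5.59 CPM in Virma cKO, against 6.73 and 6.3 CPM in Virma WT, and neither difference was called (−0.23 ± 0.19 and −0.20 ± 0.12); without Mettl3 WT replicate 2 the first was −0.57 and called.

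Pkm, pyruvate kinase, closes glycolysis and was among the highest of the genes. It was read at 1873 and 1890 CPM in libraries labelled Mettl3 cKO, against 2271 and 2264 CPM in Mettl3 WT, and at 1541 and 1536 CPM in Virma cKO, against 2545 and 2596 CPM in Virma WT. It fell by 0.27 ± 0.02 in the libraries labelled Mettl3 cKO (adjusted p = 7.63e-10) and by 0.74 ± 0.01 in Virma cKO (adjusted p = 5.15e-18). Gene values do not separate its splice forms.

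Ldha, the lactate dehydrogenase subunit that favours lactate, had the largest fall of the 35 genes in Virma cKO. It was read at 506 and 494 CPM in libraries labelled Mettl3 cKO, against 687 and 688 CPM in Mettl3 WT, and at 282 and 278 CPM in Virma cKO, against 749 and 751 CPM in Virma WT. It fell by 0.46 ± 0.02 in the libraries labelled Mettl3 cKO (adjusted p = 7.65e-11) and by 1.42 ± 0.02 in Virma cKO, 2.68-fold lower (adjusted p = 4.85e-19). Ldhb, the subunit that favours pyruvate, was read at 39.9 and 43.2 CPM in libraries labelled Mettl3 cKO, against 38.1 and 35.5 CPM in Mettl3 WT, and at 51.8 and 55.2 CPM in Virma cKO, against 50.3 and 52.1 CPM in Virma WT. Its log2 fold changes of 0.17 ± 0.08 and 0.06 ± 0.04 were not called; the first was called without Mettl3 cKO replicate 1 (0.23) and without precision weights (0.17), and the second with scaling by total (0.19) and with the trend on length and GC removed (0.11).

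Of the lactate transporters, Slc16a3 fell in both lines and Slc16a1 was not called in either. Slc16a3, the export carrier of strongly glycolytic cells, was read at 47.9 and 47.9 CPM in libraries labelled Mettl3 cKO, against 69.7 and 62.5 CPM in Mettl3 WT, and at 38.7 and 35.97 CPM in Virma cKO, against 58.98 and 57.8 CPM in Virma WT. It fell by 0.46 ± 0.06 and by 0.64 ± 0.05. Slc16a1, the widespread carrier that moves lactate both ways, was read at 197 and 199 CPM in libraries labelled Mettl3 cKO, against 186 and 191 CPM in Mettl3 WT, and at 203 and 207 CPM in Virma cKO, against 207 and 203 CPM in Virma WT. Neither of its differences was called (0.07 ± 0.03 and −0.00 ± 0.02). In Virma cKO, though, scaling by total called it 0.13 higher and removal of the length and GC trend called it 0.08 lower; in the Mettl3 line these 2 alternatives called it 0.08 and 0.23 higher.

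**Figure D2:**
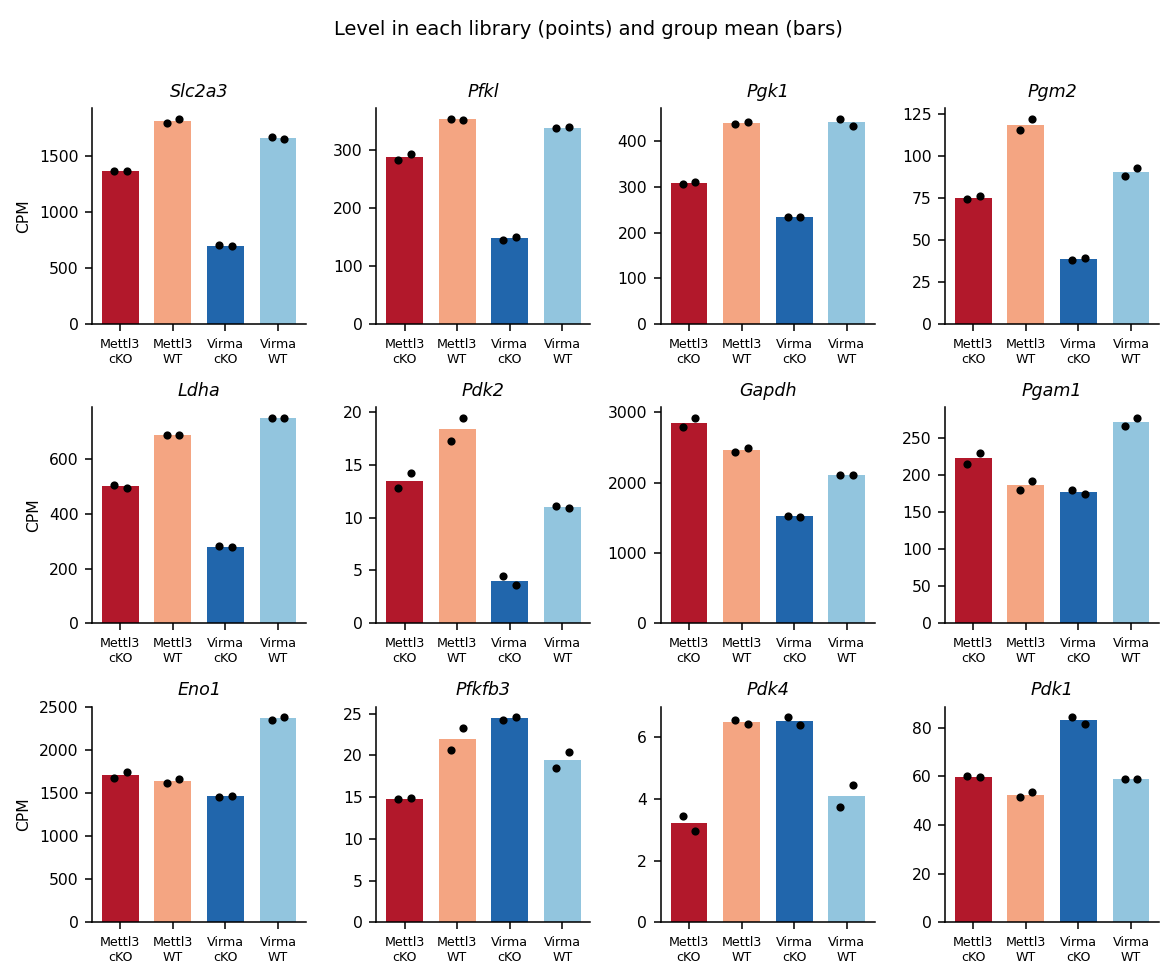
Level in CPM (y axis, each from 0) of 12 of the genes in every library (points) and as the mean of each group (bars), with the groups in the order Mettl3 cKO, Mettl3 WT, Virma cKO and Virma WT. Slc2a3, Pfkl, Pgk1, Pgm2, Ldha and Pdk2 are lowest in Virma cKO, Gapdh and Pgam1 are lower than WT in Virma cKO only, and Pfkfb3 and Pdk4 are lower than WT in the libraries labelled Mettl3 cKO and higher than WT in Virma cKO.

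The promoters of 4 genes are printed. Ldha, Pgk1 and Pfkl are shown as genes that fell in both lines, and Pdk1 as one that rose. All 4 windows hold core letters of the hypoxia response element (ACGTG or GCGTG), and genes whose windows lack them are named below. Each window runs from 250 bases before to 50 after 1 listed start of the gene in RefSeq (build GRCm38.p6). It reads 5′ to 3′ on the gene's strand, and the capitals mark those letters on either strand. Pgk1 and Pfkl have 1 listed start each, and Ldha and Pdk1 have 2 each, of which 1 is shown. Ldha lies at chr7:46845554-46845853 on the + strand, Pgk1 at chrX:106186850-106187149 on the + strand, Pfkl at chr10:78009758-78010057 on the − strand and Pdk1 at chr2:71872974-71873273 on the + strand.
Ldha: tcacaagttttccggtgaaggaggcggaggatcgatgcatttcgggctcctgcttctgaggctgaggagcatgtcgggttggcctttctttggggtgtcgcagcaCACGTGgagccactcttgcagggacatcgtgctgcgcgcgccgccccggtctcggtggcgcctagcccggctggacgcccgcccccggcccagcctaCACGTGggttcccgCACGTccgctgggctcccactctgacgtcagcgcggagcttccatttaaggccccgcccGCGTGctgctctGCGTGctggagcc
Pgk1: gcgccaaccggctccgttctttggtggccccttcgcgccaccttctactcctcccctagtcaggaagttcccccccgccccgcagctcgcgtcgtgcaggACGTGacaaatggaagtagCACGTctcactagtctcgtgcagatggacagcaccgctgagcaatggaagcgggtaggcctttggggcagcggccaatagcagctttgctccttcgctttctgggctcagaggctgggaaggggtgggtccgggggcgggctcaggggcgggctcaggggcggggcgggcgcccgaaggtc
Pfkl: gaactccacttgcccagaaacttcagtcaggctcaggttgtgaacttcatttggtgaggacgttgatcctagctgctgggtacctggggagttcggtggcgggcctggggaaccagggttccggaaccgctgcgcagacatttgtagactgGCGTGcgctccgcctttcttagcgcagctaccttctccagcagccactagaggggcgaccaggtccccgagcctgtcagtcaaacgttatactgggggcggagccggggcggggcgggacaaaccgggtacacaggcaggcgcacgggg
Pdk1: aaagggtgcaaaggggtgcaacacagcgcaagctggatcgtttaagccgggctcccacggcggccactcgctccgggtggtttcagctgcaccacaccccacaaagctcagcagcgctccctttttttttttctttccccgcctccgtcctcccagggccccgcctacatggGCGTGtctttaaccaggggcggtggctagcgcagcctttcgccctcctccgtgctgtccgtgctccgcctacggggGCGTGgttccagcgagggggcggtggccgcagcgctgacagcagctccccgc

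Counted on both strands, the Ldha window held 5 matches to ACGTG, of which the 2 copies of the palindrome CACGTG, the Myc-type E-box, gave 2 each, and 2 matches to GCGTG. Pgk1 held 2 matches to ACGTG, Pfkl 1 to GCGTG and Pdk1 2 to GCGTG. A RefSeq window was matched by symbol for 34 of the 35 genes, all but Slc2a3. Only 1 window per gene was searched, at 1 listed start. Some genes have more listed starts, such as 4 for Pfkm and 3 each for Aldoa and Eno1. Windows at the other starts were not searched, so the shares below hold only for the starts used. ACGTG was present in 17 of the 34 (50%), beside 25.3% of the windows of 11336 genes tested. GCGTG was present in 50%, beside 50.6%, and CACGTG, which holds ACGTG, in 17.6%, beside 10.1%. ACGTG was present in 13 of the 21 genes that fell in Virma cKO (61.9%) and in 4 of the other 13 (30.8%). GCGTG went the other way, in 10 of the 21 (47.6%) and 7 of the other 13 (53.8%). Either form was present in 16 of the 21 (76.2%) and 9 of the other 13 (69.2%), beside 62.0% of the windows of genes tested. Neither form was present in the windows of Aldoa, Tpi1, Pkm and Pgam2, which also fell in both lines. The windows of Gpi1, Hk1, Pfkfb1, Bpgm and Eno2 lacked both forms too. These are counts of letters in a window and not of bound sites.

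The PFKFB enzymes make and remove the sugar bisphosphate that activates phosphofructokinase. Pfkfb3, the isoform with the strongest bias to making it, went opposite ways, at 14.8 and 14.8 CPM in libraries labelled Mettl3 cKO, against 20.6 and 23.2 CPM in Mettl3 WT, and 24.2 and 24.6 CPM in Virma cKO, against 18.5 and 20.4 CPM in Virma WT. It fell by 0.55 ± 0.10 in the libraries labelled Mettl3 cKO and rose by 0.32 ± 0.06 in Virma cKO. Pfkfb2, the heart isoform, was near the lower end of what could be measured, at 2.29 and 2.36 CPM in libraries labelled Mettl3 cKO, against 3.92 and 6.05 CPM in Mettl3 WT, and 2.17 and 2.92 CPM in Virma cKO, against 4.57 and 4.86 CPM in Virma WT. It fell by 0.92 ± 0.24 and by 0.79 ± 0.16; the first call was lost without Mettl3 WT replicate 2 (−0.65, adjusted p = 0.0951), and its lowest library held about 26 reads. Pfkfb1, the liver isoform, lay between 10.1 and 12.9 CPM in all 8 libraries, and Pfkfb4, a hypoxia-induced isoform, between 5.65 and 8.78 CPM. Their cKO and WT levels were not called different, although Pfkfb1 was called lower in Virma cKO without Virma cKO replicate 1 (−0.28) and Pfkfb4 lower in the Mettl3 line without Mettl3 WT replicate 2 (−0.50) or with the trend on length and GC removed (−0.43).

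Pyruvate dehydrogenase kinases hold pyruvate out of the mitochondrial oxidation step, and each of the 4 genes had its own pattern. Pdk1 was read at 60.1 and 59.5 CPM in libraries labelled Mettl3 cKO, against 51.6 and 53.4 CPM in Mettl3 WT, and at 84.4 and 81.6 CPM in Virma cKO, against 58.8 and 58.7 CPM in Virma WT. It rose by 0.19 ± 0.06, a call lost without Mettl3 WT replicate 1 (0.16, adjusted p = 0.111), and by 0.50 ± 0.03 in Virma cKO. Pdk2, the widely expressed isoform, was read at 12.8 and 14.2 CPM in libraries labelled Mettl3 cKO, against 17.3 and 19.4 CPM in Mettl3 WT, and at 4.47 and 3.58 CPM in Virma cKO, against 11.1 and 10.9 CPM in Virma WT. It fell by 0.43 ± 0.11 in the libraries labelled Mettl3 cKO, a call lost without Mettl3 WT replicate 2 (−0.35, adjusted p = 0.0643), and by 1.35 ± 0.12, 2.55-fold lower, in Virma cKO.

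Pdk4, the isoform known to rise with fasting and fat use, was the gene whose 2 effects differed most. It was read at 3.43 and 2.97 CPM in libraries labelled Mettl3 cKO, against 6.53 and 6.41 CPM in Mettl3 WT, and at 6.65 and 6.38 CPM in Virma cKO, against 3.73 and 4.44 CPM in Virma WT. It fell by 0.91 ± 0.19 in the libraries labelled Mettl3 cKO and rose by 0.62 ± 0.11 in Virma cKO, from low levels of about 39 reads or more per library. Pdk3 was read at 68.3 and 70.01 CPM in libraries labelled Mettl3 cKO, against 58.5 and 58.6 CPM in Mettl3 WT, and at 47.4 and 48.9 CPM in Virma cKO, against 58.2 and 68.5 CPM in Virma WT. It fell by 0.39 ± 0.06 in Virma cKO. Its rise of 0.24 ± 0.08 in the libraries labelled Mettl3 cKO was not called without Mettl3 WT replicate 1 (0.24), Mettl3 WT replicate 2 (0.24) or Mettl3 cKO replicate 2 (0.22), with no filter (0.24), with a pseudocount of 1 CPM (0.24) or with the trend on length and GC removed (0.18). Summed over the 4 kinases, the level was 1.07 of WT in the Mettl3 line and 1.03 of WT in the Virma line.

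Of the genes that handle glucose phosphates, Pgm2 fell clearly in both lines. It was read at 74.2 and 75.95 CPM in libraries labelled Mettl3 cKO, against 115 and 122 CPM in Mettl3 WT, and at 38.1 and 39.2 CPM in Virma cKO, against 87.8 and 92.6 CPM in Virma WT, with falls of 0.66 ± 0.05 and 1.21 ± 0.04. Pgm1 was read at 50.5 and 53.5 CPM in libraries labelled Mettl3 cKO, against 58.7 and 58.9 CPM in Mettl3 WT, and at 47.9 and 50.4 CPM in Virma cKO, against 44.7 and 46.3 CPM in Virma WT. Its fall of 0.18 ± 0.06 and its rise of 0.11 ± 0.04 were each lost when single libraries were left out (−0.14 to −0.18 without Mettl3 cKO replicate 1 or either Mettl3 WT library; 0.09 without Virma WT replicate 1 and 0.08 without Virma cKO replicate 2), and the rise also without weights (0.11) and with the Virma line fitted alone (0.09). Both genes encode phosphoglucomutases, whose mouse symbols have been exchanged between annotation versions. GENCODE M21 and RefSeq both place Pgm1 on chromosome 4 and Pgm2 on chromosome 5. The annotation that the submitters counted with is not known, so which locus each row holds is not fully settled. G6pc3, the widespread phosphatase that frees glucose from its phosphate, was read at 24.1 and 25.8 CPM in libraries labelled Mettl3 cKO, against 16.02 and 19.2 CPM in Mettl3 WT, and rose by 0.50 ± 0.10, a call lost once the trend on length and GC was removed (0.21, adjusted p = 0.103). In Virma cKO G6pc3 was read at 17.2 and 15.9 CPM, against 16.6 and 17.3 CPM in Virma WT, and its log2 fold change of −0.04 ± 0.07 was not called.

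Ratios between paired genes, each per kilobase of transcript, did not all shift. Aldoa over Aldoc was 218 and 159 in the libraries labelled Mettl3 cKO, against 123 and 145 in Mettl3 WT, but 301 and 208 in Virma cKO, against 252 and 254 in Virma WT, with overlap in the Virma line. Ldhb over Ldha was 0.110 and 0.122 in the libraries labelled Mettl3 cKO, against 0.0772 and 0.0718 in Mettl3 WT, and 0.255 and 0.277 in Virma cKO, against 0.0935 and 0.0965 in Virma WT. The ratio was higher in cKO in both lines with no overlap, and Ldha stayed the more abundant subunit in all 8 libraries. Slc2a3 over Slc2a1 was 3.51 and 3.43 in the libraries labelled Mettl3 cKO, against 3.62 and 3.80 in Mettl3 WT, and 1.47 and 1.45 in Virma cKO, against 3.17 and 3.16 in Virma WT. Slc16a1 over Slc16a3 was 4.03 and 4.07 in the libraries labelled Mettl3 cKO, against 2.61 and 2.995 in Mettl3 WT, and 5.13 and 5.64 in Virma cKO, against 3.43 and 3.45 in Virma WT. Pfkl over Pfkp moved opposite ways, at 2.68 and 2.81 in the libraries labelled Mettl3 cKO, against 2.28 and 2.19 in Mettl3 WT, and 2.70 and 2.78 in Virma cKO, against 4.32 and 4.74 in Virma WT. With 2 libraries a group, an exact two-sided permutation test of 1 such ratio could not give a p below 0.333, so none is given.

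**Figure D3:**
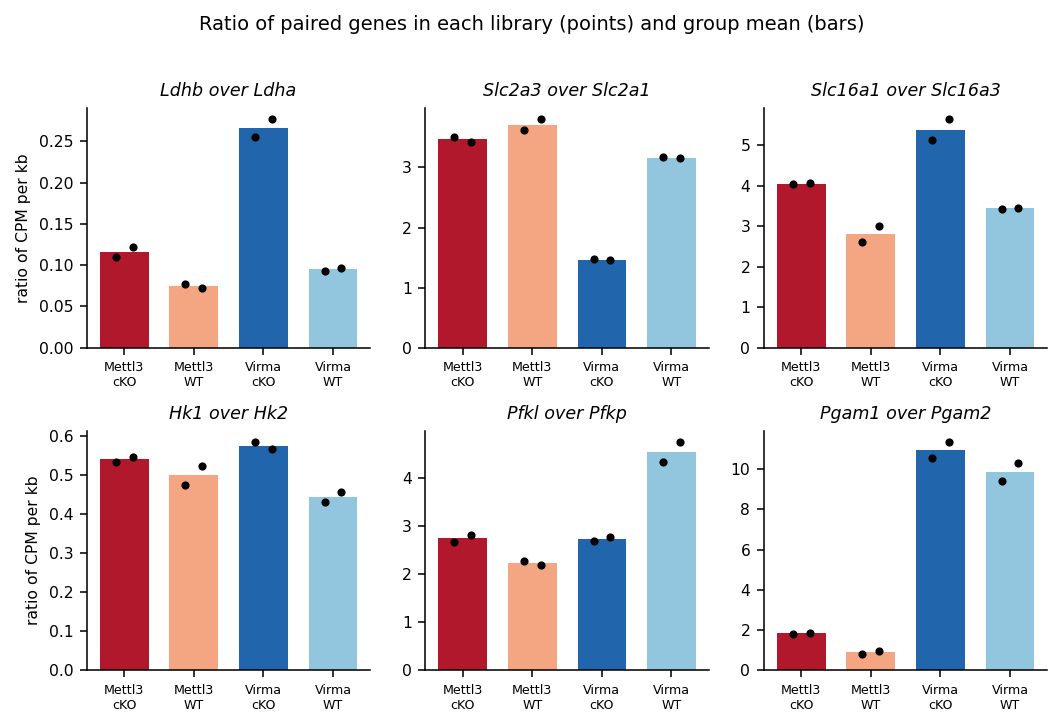
Ratio of the per-kilobase levels of 6 pairs of genes (y axis, each from 0) in every library (points) and as the mean of each group (bars), with cKO left of WT in each line. Ldhb over Ldha averages 0.266 in Virma cKO and 0.0950 in Virma WT, and Slc2a3 over Slc2a1 averages 1.46 in Virma cKO and 3.17 in Virma WT.

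The size of the response differed between the lines for most of the genes. By the test of the Virma effect minus the Mettl3 effect, 24 of the 35 genes differed, 17 toward a lower value in the Virma line and 7 toward a higher one, beside 25.2% lower and 19.5% higher among all genes tested. The median difference was −0.17, beside −0.02 for all genes tested. Over all genes, 3638 were lower and 2813 higher, and with scaling by total 2610 were lower and 3954 higher, with 16 of the 35 genes lower and 8 higher. Ldha (−0.96 ± 0.03), Pdk2 (−0.92 ± 0.16), Pfkl (−0.90 ± 0.04), Pgam1 (−0.87 ± 0.05) and Slc2a3 (−0.83 ± 0.02) had the most negative differences, and Pdk4 (1.53 ± 0.22) and Pfkfb3 (0.87 ± 0.12) the most positive. The difference of Pfkm (−0.24 ± 0.07) was lost with the Mettl3 WT pair as 1 sample (−0.23), without Mettl3 WT replicate 1 (−0.24) or Mettl3 cKO replicate 2 (−0.19) and with scaling by total (−0.12), and those of Pfkm (−0.09), Pdk1 (0.12) and G6pc3 (−0.23) were lost with the trend on length and GC removed. No difference was called for Pfkp, Pfkfb2, Aldoc, Pgam2, Eno3 or Slc16a3, which moved in the same direction in both lines. Alternatives called some of these: Pfkp (0.23 with scaling by total and 0.18 without Virma WT replicate 1), Pgam2 (0.40, adjusted p = 0.00548) and Eno3 (0.35, adjusted p = 0.0376) with the trend on length and GC removed, and Slc16a3 without Mettl3 WT replicate 1 (−0.26) or Virma cKO replicate 1 (−0.23). Slc16a1, called in neither line, differed by −0.31 with that trend removed. A difference that was not called does not show that a gene responded alike in the lines: it was 0.13 ± 0.28 for Pfkfb2 and 0.04 ± 0.22 for Aldoc, both low genes.

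The WT groups of the 2 lines also differed, so the choice of control bears on the Mettl3 line. Mettl3 WT was above Virma WT for 16 of the 35 genes and below it for 8 (14 and 5 with the Mettl3 WT pair as 1 sample), beside 18.3% higher and 24% lower among all genes tested; these libraries are the same controls as above. Pgam2 was 2.86 ± 0.07 higher in Mettl3 WT on the log2 scale, Pfkp 1.07 ± 0.04, Aldoc 1.05 ± 0.16 and Pdk2 0.71 ± 0.11. Pgam1 (−0.54 ± 0.04) and Eno1 (−0.53 ± 0.02) were lower in Mettl3 WT. With Virma WT as the control for the libraries labelled Mettl3 cKO, 12 of the 35 genes were higher and 15 lower, with a median of −0.07, beside 31.5% higher and 32% lower among all genes tested. Ldha, Slc2a3, Pgk1, Aldoa, Tpi1, Pkm and Pfkl had the same direction under that control, and Hk1, Hk2, Pfkp, Aldoc, Pgam1, Pgam2, Eno1, Pdk2 and Pgm1 turned. The calls of Pdk1 (0.03), Pdk3 (0.13) and Pdk4 (−0.30, adjusted p = 0.0947) were lost.

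The median transcript of the 35 genes was 2523 bases long with 53.0% GC, beside 3123 bases and 50.7% GC for all genes tested with a transcript. The longest coding transcript of each gene (GENCODE M21, GRCm38) held GGACT, a common form of the m6A motif, in 32 of the 35 genes (91.43%). Among all genes tested with a transcript the share was 92.79%. The median was 1.04 matches per kb, beside 1.06 for all genes tested. The 22 genes that fell in Virma cKO had a median of 1.004 per kb and the other 13 a median of 1.13. No methylation was measured here. Near-identical copies exist for several of the genes, Gapdh and Eno1 among them, and the authors' counting could split reads between them; of 5 such copies in the table, 2 were tested, neither was called in the Mettl3 line, and Eno1b (0.61 ± 0.12) rose in Virma cKO, to 9.06 and 10.1 CPM in Virma cKO against 5.47 and 6.84 CPM in Virma WT.

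Neighbouring pathways did not all move with glycolysis. For each list, the counts stand beside the shares of all genes tested. These were 33.3% lower and 34.1% higher in Virma cKO, and 24.1% lower and 24% higher in the libraries labelled Mettl3 cKO. In the list for the tricarboxylic acid cycle, 17 of 18 genes fell and 1 rose in Virma cKO. In the libraries labelled Mettl3 cKO, 9 fell and 5 rose. The list also counts Idh1 and Aco1, whose enzymes are cytosolic and lie outside the mitochondrial cycle, and Mdh2 is counted in the next list. Idh1, the cytosolic isocitrate dehydrogenase, was read at 99.5 and 97.9 CPM in libraries labelled Mettl3 cKO, against 188 and 179.8 CPM in Mettl3 WT, and at 59.9 and 58.9 CPM in Virma cKO, against 123 and 123 CPM in Virma WT, with falls of 0.90 ± 0.04 and 1.04 ± 0.03. Idh3g, a subunit of the mitochondrial enzyme, fell by 0.35 ± 0.05 and by 0.77 ± 0.04. Of 15 genes of pyruvate entry and shuttles, 9 fell and 2 rose in Virma cKO, and 5 fell and 4 rose in the libraries labelled Mettl3 cKO; Mdh2, mitochondrial malate dehydrogenase, fell by 0.53 ± 0.02 in Virma cKO and rose by 0.11 ± 0.02 in the libraries labelled Mettl3 cKO, where it turned to −0.13 with the trend on length and GC removed.

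The branches off glycolysis were mixed. Of all genes tested, 33.3% fell and 34.1% rose in Virma cKO, and 24.1% fell and 24% rose in the libraries labelled Mettl3 cKO. In the pentose phosphate pathway, 6 of 11 genes fell and 2 rose in Virma cKO, and 3 fell and 3 rose in the libraries labelled Mettl3 cKO. Pgd, its second oxidative step, was read at 516 and 538 CPM in libraries labelled Mettl3 cKO, against 287 and 292 CPM in Mettl3 WT, and at 534 and 528 CPM in Virma cKO, against 293 and 295 CPM in Virma WT. It rose by 0.86 ± 0.03 and by 0.85 ± 0.02, while Tkt, a transketolase of the nonoxidative arm, fell by 0.14 ± 0.02 and by 0.68 ± 0.02. Of 15 genes of gluconeogenesis and glycogen, 5 rose and 4 fell in Virma cKO, and 2 rose and 7 fell in the libraries labelled Mettl3 cKO. Pck2, the mitochondrial carboxykinase that makes phosphoenolpyruvate, was read at 60.6 and 65.1 CPM in libraries labelled Mettl3 cKO, against 28.7 and 26.7 CPM in Mettl3 WT, and at 53.5 and 55.8 CPM in Virma cKO, against 22.1 and 21.1 CPM in Virma WT. It rose by 1.16 ± 0.08 and by 1.32 ± 0.05, more than any of the 35 genes rose in either comparison. In the serine and hexosamine branches, 7 of 10 genes fell and 1 rose in Virma cKO, and 3 fell and 5 rose in the libraries labelled Mettl3 cKO. Psat1, of serine synthesis, rose by 0.50 ± 0.04 and by 0.78 ± 0.03, and Gfpt1, the entry to hexosamines, fell by 1.01 ± 0.04 and by 0.77 ± 0.03.

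Among 19 other isozymes and transporters, 6 fell and 5 rose in Virma cKO, and 2 fell and 3 rose in the libraries labelled Mettl3 cKO. The shares of all genes tested were 33.3% lower and 34.1% higher in Virma cKO. In the libraries labelled Mettl3 cKO they were 24.1% and 24%. Hkdc1, a hexokinase-like gene, was read at 26.8 and 26.3 CPM in libraries labelled Mettl3 cKO, against 55.2 and 52.8 CPM in Mettl3 WT, and at 5.08 and 5.59 CPM in Virma cKO, against 29.9 and 32.2 CPM in Virma WT. It fell by 1.01 ± 0.07 and by 2.44 ± 0.09. Of 19 regulators of glycolysis, 7 fell and 7 rose in Virma cKO, and 10 fell and 3 rose in the libraries labelled Mettl3 cKO. Mycn, a Myc-family factor of stem cells, was read at 57.3 and 61.5 CPM in libraries labelled Mettl3 cKO, against 76.7 and 65.95 CPM in Mettl3 WT, and at 24.7 and 24.0 CPM in Virma cKO, against 67.03 and 67.2 CPM in Virma WT, with falls of 0.26 ± 0.06 and 1.44 ± 0.05. Epas1, which encodes a hypoxia-inducible factor, fell by 0.77 ± 0.07 and by 1.07 ± 0.06. Hif1a and Myc, chosen after their values were seen, moved in opposite directions: Hif1a fell by 0.37 ± 0.05 and by 0.09 ± 0.03, the second not called with scaling by total (0.05, adjusted p = 0.169), and Myc rose by 0.64 ± 0.09 and by 0.30 ± 0.05.

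**Figure D4:**
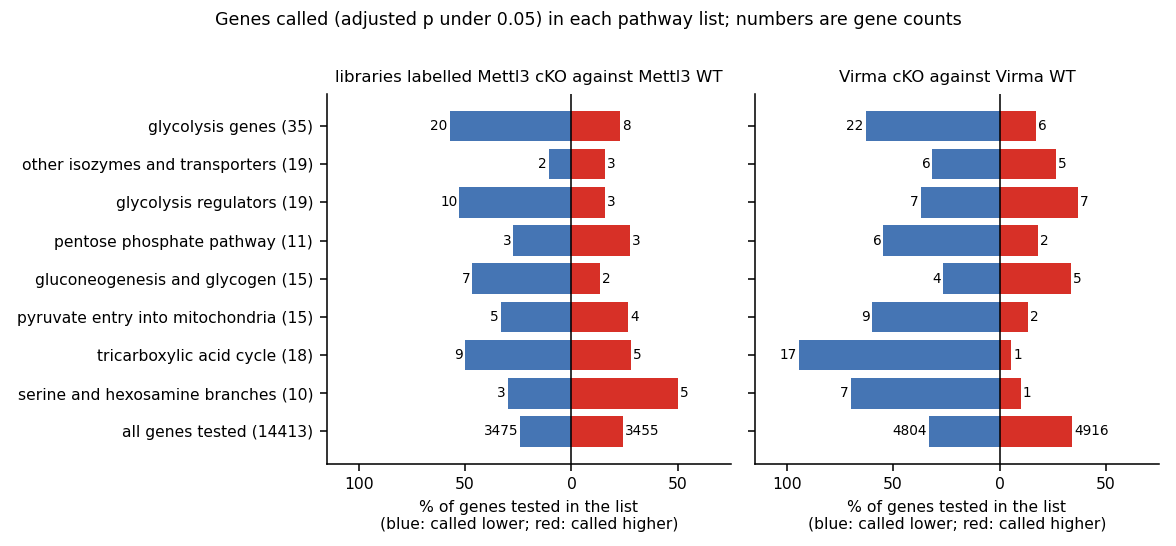
Share of the genes tested in each pathway list (x axis, %) called lower (blue, left) or higher (red, right), with the gene counts at the bar ends and the number tested in brackets, for the libraries labelled Mettl3 cKO against Mettl3 WT (left panel) and Virma cKO against Virma WT (right panel). The 35 genes are called lower more often than higher in both panels (20 and 8, then 22 and 6). The tricarboxylic acid cycle list, which includes the cytosolic Idh1 and Aco1, has 17 of 18 genes called lower in Virma cKO.

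Markers of cell types moved in the same libraries. The summed level of 12 primitive endoderm markers was 5523 to 5553 CPM in libraries labelled Mettl3 cKO, against 8661 to 8686 CPM in Mettl3 WT, and 1006 to 1019 CPM in Virma cKO, against 7113 to 7127 CPM in Virma WT. Of these 12 markers, 10 fell in the libraries labelled Mettl3 cKO and 12 in Virma cKO, beside 24.1% and 33.3% of all genes tested. The 8 pluripotency markers summed to 1814 to 1863 CPM in libraries labelled Mettl3 cKO, against 1905 to 1919 CPM in Mettl3 WT, and 1158 to 1170 CPM in Virma cKO, against 2000 to 2019 CPM in Virma WT. They were split in the Mettl3 line, where 3 rose and 4 fell, and in Virma cKO 1 rose and 7 fell. Both sets were detected in every group.

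The 14 fibroblast markers summed to 394 to 396 CPM in libraries labelled Mettl3 cKO, against 212 to 228 CPM in Mettl3 WT, and 1124 to 1132 CPM in Virma cKO, against 502 to 503 CPM in Virma WT, and 10 and 14 of them rose. Over all genes tested, 24% rose and 24.1% fell in the Mettl3 line, and 34.1% rose and 33.3% fell in the Virma line. Trophectoderm markers (8 genes) summed to 465 to 486 CPM in libraries labelled Mettl3 cKO, against 506 to 509 CPM in Mettl3 WT, and 652 to 656 CPM in Virma cKO, against 527 to 538 CPM in Virma WT; 2 rose and 4 fell in the Mettl3 line, and 2 rose and 2 fell in the Virma line. Neural markers (6 genes) lay between 53.0 and 73.0 CPM and erythroid markers (6 genes) at or under 2.0 CPM in every library, with Hbb-bs at 0 throughout. In bulk samples, fewer cells of a type and less RNA per cell cannot be told apart, and the part of these markers in the levels of the glycolysis genes was not tested. The labels list 2 library kits for all samples without saying which library used which, and the Mettl3 WT libraries were the shallowest, so the part of kit and depth was not tested either.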

How the data were processed

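STAR 2.7.11b, Subread, FastQC 0.12.1, Trim Galore and DESeq2 were used with build mm39, per the submitters' processing notes, which give no settings. The authors' deposited table is used as a scaled signal, with its low values taken as rounded multiples of 1 step per library. In each Mettl3 WT library, 19 low whole numbers never occurred. In every other library at most 1 was missing, so the gaps alone could not test the step there. The step of each library was estimated from how often each low value occurred. Approximate reads were recovered as value over step (the largest error of a step was 2.05% in 6 simulated libraries). They were scaled by the trimmed mean of M values and filtered at 0.5 CPM in at least 2 libraries. The test was limma 3.58.1 in R 4.3.3 on log2(CPM + 0.5) with voom precision weights and robust variances, over all 8 libraries in 1 fit, with Benjamini-Hochberg adjustment. A quasi-likelihood count test had been planned and could not be used on these values. On simulated data with 14273 genes for the Mettl3 comparison, 64% of 1.5-fold and 98% of 2-fold changes were recovered and 2.45% of calls were false; with 14255 genes for the Virma comparison these were 86%, 96% and 4.26%. Without weights, 18.84% of the simulated Mettl3 calls and 0% of the simulated Virma calls were false. The weighted fit, with a lower share in the worse case, was used. In the simulation 50 genes changed at each fold, as many up as down, and the variation between libraries was small and equal for all genes. In the data 6930 and 9720 genes were called in the 2 comparisons, so the simulated rates need not hold for them.

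Over all genes, chi-square per degree of freedom between the 2 libraries of a group was 1.632 (Mettl3 cKO), 1.074 (Mettl3 WT), 1.326 (Virma cKO) and 1.897 (Virma WT), where repeat runs of 1 sample would give about 1. Over the 35 genes it was larger, at 3.184 (Mettl3 cKO), 1.384 (Mettl3 WT), 1.716 (Virma cKO) and 3.48 (Virma WT). Over genes with lower read counts it was smaller, at 1.115 (Mettl3 cKO), 1.037 (Mettl3 WT), 1.133 (Virma cKO) and 1.168 (Virma WT). The 35 genes were not compared with other genes of like read count, so they are not shown to vary more. Separate cultures cannot be told from repeat libraries by these values; all 8 entered as separate libraries. The Virma cKO and the Mettl3 WT pair were each also counted as 1 sample. Groups follow the titles in the labels. Genes were named in full where they were called at 1.5-fold or more, belong to a pair of isozymes or differ between the lines; of each neighbouring list at most the 4 genes with the largest called change were eligible. The genes and lists were chosen with earlier results of these data known. Transcript length, GC content and GGACT come from GENCODE M21 (GRCm38), matched by symbol for 21144 of 21812 genes and for 35 of 35 described here. Alternatives covered scaling, filter, pseudocount, weights, replicate block, length and GC trend, fits per line, single libraries left out, the 2 pairs as 1 sample, and another control; the as-deposited scaling, the pseudocounts of 0.1 and 1 CPM, the fit without weights and the pairs as 1 sample were added after seeing the data.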

Additional observations from a re-analysis of the deposited data

Results flagged for a closer look

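Genes are listed here because the test of the difference between the lines (Virma effect minus Mettl3 effect, on the log2 scale, adjusted p under 0.05) called them, and the values are given with no explanation. Among the 35 glycolysis genes, the difference was toward a lower value in the Virma line for Ldha (−0.96), Pdk2 (−0.92), Pfkl (−0.90), Pgam1 (−0.87), Slc2a3 (−0.83), Eno1 (−0.75), Gapdh (−0.68), Pdk3 (−0.63), Pgm2 (−0.55), G6pc3 (−0.54), Bpgm (−0.51), Tpi1 (−0.50), Aldoa (−0.50), Pkm (−0.47), Gpi1 (−0.44), Pgk1 (−0.40) and Pfkm (−0.24). It was toward a higher value for Pdk4 (1.53), Pfkfb3 (0.87), Hk1 (0.45), Pdk1 (0.31), Pgm1 (0.29), Hk2 (0.20) and Slc2a1 (0.19).

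Among the neighbouring genes named, Hkdc1 (−1.42), Mycn (−1.18), Mdh2 (−0.64), Tkt (−0.54), Idh3g (−0.42), Myc (−0.33), Epas1 (−0.30) and Idh1 (−0.14) differed toward a lower value in the Virma line, and Hif1a (0.28), Psat1 (0.28) and Gfpt1 (0.24) toward a higher one. The targeted genes differed too, Mettl3 by −0.40 and Virma by −0.44.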

How the results depend on the processing

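Over 2905 recomputed values of the 35 genes, 2793 kept their side of the threshold, and their direction where either fit called them. A further 63 were no longer called, 32 became called and 17 turned. A value called in neither fit was counted as kept whatever its sign. The total includes fits that left out a library outside the comparison, so the kept share depends in part on the choice of fits. With Virma WT as the control for the libraries labelled Mettl3 cKO, the median of the 35 genes was −0.073, and Hk1 (0.40), Hk2 (0.13), Gpi1 (0.11), Pfkp (0.49), Aldoc (0.33), Pgam1 (−0.29), Pgam2 (2.09), Eno1 (−0.47), Ldhb (−0.30), Pdk2 (0.28), Pgm1 (0.19) and Tkt (0.094) turned; the alternative swaps the control libraries, which themselves differed. With the trend on transcript length and GC content removed, 3 of the 35 genes were higher in the libraries labelled Mettl3 cKO, the medians were −0.42 (Mettl3 line), −0.44 (Virma line), −0.091 (difference) and 0.15 (WT groups), and 2625 genes were called higher and 3764 lower in the Mettl3 line, and 3275 higher and 2683 lower in Mettl3 WT against Virma WT (2639 and 3454 before). In that fit Gapdh (−0.061), Eno1 (−0.20) and Mdh2 (−0.13) turned in the Mettl3 line, Slc16a1 (0.0019) turned between the WT groups, and the differences turned for Pgd (0.18), Hif1a (−0.029) and Gfpt1 (−0.066); the cause was not tested. Scaling by total gave medians of −0.34 (Virma line), −0.054 (difference) and 0.16 (WT groups), and turned Hk2 (0.023), Slc2a1 (0.0082), Slc16a1 (0.13) and Hif1a (0.047) in the Virma line and the difference of Pgd (0.11). Median-of-ratios scaling gave −0.30 (Mettl3 line), −0.14 (difference) and 0.16 (WT groups), the deposited scaling −0.29 (Mettl3 line) and 0.15 (WT groups), and each line fitted on its own −0.49 (Virma line). Leaving out 1 library at a time gave medians of −0.30 to −0.26 (Mettl3 line), −0.47 to −0.44 (Virma line), −0.26 to −0.14 (difference) and 0.10 to 0.16 (WT groups), and 5 to 9 genes higher in the libraries labelled Mettl3 cKO, 5 without Mettl3 WT replicate 1. With the Mettl3 WT pair as 1 sample, 5 of the 35 genes were higher in the libraries labelled Mettl3 cKO and 5 lower in Mettl3 WT than in Virma WT; this leaves fewer samples. The correlation between groups of the deviations by replicate number ran from −0.03 to 0.22. Between cKO and WT it was 0.049 in the Mettl3 line and −0.025 in the Virma line. The highest value, 0.217, was between Mettl3 cKO and Virma WT. Whether replicate numbers mark a shared batch was not tested. With the replicate number as a block, 7072, 9807, 6635 and 6307 genes were called in the 4 comparisons, against 6930, 9720, 6451 and 6093, and the counts among the 35 genes stayed at 20 lower and 8 higher, 22 and 6, 17 and 7, and 8 and 16. DESeq2 and edgeR, planned on raw counts, were not run because the deposited values are not raw counts. Depth limits the low genes of Mettl3 WT most: there, 1 read is worth 2.55 or 2.76 deposited units, and Pfkfb2, Eno2, Pdk4 and Pfkfb4 rest on the fewest reads.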
